A study of Mus musculus with 2 samples.

Results

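Mir28a, Mir151 and Mir708 are 3 mouse microRNA genes that are grouped as the miR-28 family because their 5p products share most of a core sequence. They were taken by gene name from the 2202 microRNA genes counted in the series, with gene identifiers matched to the GENCODE M21 annotation of the mm10 genome. The rule uses the gene names and sets no threshold on a measured value, though earlier results of these data were known when the genes were chosen. The cells were C2C12 myocytes, a mouse myoblast line of the C3H strain obtained from ATCC, given 72 h to differentiate, and there was 1 group with 2 biological replicates. Both replicates come from the same line, and separate differentiation of the cultures is not stated in the labels, so the spread between them may be technical in part. With no undifferentiated cells and no treatment among the samples, the data give the levels of these genes in myocytes and how far each level differed between the libraries.

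A microRNA gene is transcribed as a hairpin, from whose arms the short mature 5p and 3p strands are cut. The seed, bases 2 to 8 of a mature strand, pairs with target messenger RNAs and largely decides which ones are repressed, so microRNAs with the same seed tend to share targets. All 3 hairpins lie inside introns of protein-coding genes. The hosts are Lpp, whose protein sits at focal adhesions, Ptk2, which encodes focal adhesion kinase, and Tenm4, which encodes a teneurin transmembrane protein. In muscle, miR-708 is known as a Notch-dependent microRNA of quiescent satellite cells, the stem cells of skeletal muscle, in which it restrains migration. miR-28 has been studied in B cells, and miR-151 from studies of cell migration together with focal adhesion kinase.

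The mature sequences are shown to see which members share a seed. The RefSeq table used here (build GRCm38.p6) had mature entries for 2 of the 3 members, Mir28a and Mir708, and not for Mir151. Bases are written 5′ to 3′ and capitals mark the seed, bases 2 to 8.
miR-28a-5p: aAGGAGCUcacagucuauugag
miR-708-5p: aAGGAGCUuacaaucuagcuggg
miR-28a-3p: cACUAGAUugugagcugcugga
miR-708-3p: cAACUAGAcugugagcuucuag
miR-28b: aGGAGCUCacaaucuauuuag

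miR-28a-5p and miR-708-5p had the same seed, AGGAGCU. Among 1738 mature sequences in the table, these 2 were the sequences that carried it at bases 2 to 8. Along 22 aligned bases they were identical at 16, and the differences, counted from the 5′ end of miR-28a-5p with its base first, were C9U, G13A, U18G, U19C, G20U and A21G. All 6 differences therefore lay 3′ of the seed. The 3p strands were identical at 17 of 21 aligned bases, but only when miR-708-3p was shifted by 1 base, so their seeds, ACUAGAU and AACUAGA, were not the same. No other mature sequence in the table carried either of these 3p seeds. For miR-151-5p it is known that the strand starts further upstream in the common core, so that its seed is offset from AGGAGCU and only partly overlaps it. A common seed was thus found for the 5p strands of Mir28a and Mir708, and Mir151 belongs to the group by its core sequence.

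Mir28b, a further gene named as a relative of miR-28, was close in sequence and differed in seed. Its mature strand matched miR-28a-5p at 19 of 21 aligned bases, with the substitutions G13A and G20U. It begins 1 base later, so the AGGAGCU letters are its bases 1 to 7 and its seed is GGAGCUC. Mir28c was the remaining relative by name.

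The 3 members lie on 3 chromosomes, and none overlapped another annotated microRNA gene. Mir28a (ENSMUSG00000065494.1) lies on the plus strand at chr16:24827855-24827940, within an Lpp intron of 82814 bases. The intron is the same in the 3 coding Lpp transcripts that span the hairpin, and the hairpin is 65578 bases downstream of the exon before it. Mir151 (ENSMUSG00000065612.1) lies on the minus strand at chr15:73254815-73254882, in a Ptk2 intron of 14556 bases, 2151 bases after the upstream exon. In the 2 coding transcripts that span it, that intron is number 22 of 31 or number 23 of 33. Mir708 (ENSMUSG00000076143.1) lies on the plus strand at chr7:96249424-96249532, in the first intron of each of the 4 coding Tenm4 transcripts around it. Depending on the transcript, this intron is 143365 to 183862 bases long. Each hairpin has the orientation of its host, and the level of the host transcripts was not measured in these libraries.

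Both libraries were deep for these genes. Replicate 1 had 7581366 reads assigned to the sense strand of microRNA genes and replicate 2 had 9865298. Levels are given as CPM, counts per 1000000 assigned sense-strand counts. A sequenced read covers a mature microRNA from end to end, so counts were not divided by hairpin length. The 5p and 3p strands of a hairpin were counted together. A gene with at least 10 counts in each library was called detected, which held for 314 genes and for all 3 members. Of the marker lists, the 8 muscle microRNAs made up 35.5% and 42.8% of assigned counts. Mir206 alone carried 95.9% and 97.3% of the counts of that list, and the other 7 genes together took 1.44% and 1.15% of assigned counts. Of the 8 genes, 6 were detected. The list holds the gene pairs Mir1a-1 and Mir1a-2, and Mir133a-1 and Mir133a-2. Mir1a-1 had 23 and 28 counts, and Mir1a-2 had 32 and 18. Reads that fit both genes of a pair were counted for neither, so these low counts do not show that miR-1 or miR-133a was scarce. The 6 neural and 6 pluripotency microRNAs had 0 counts in replicate 1 and 1 count per list in replicate 2. The neural list holds only gene copies of miR-124 and miR-9. Reads that fit several copies were counted for none, so the neural counts do not show that these microRNAs were absent. The 5 epithelial microRNAs had 33 and 21 counts, the 4 blood microRNAs 768 and 1802, and the 2 of liver and endothelium 1654 and 427. In each of the last lists, 1 gene held most counts. Mir142 had 675 and 1752 of the blood counts, and Mir126a had 1646 and 423 of those of liver and endothelium.

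Mir28a was the most abundant of the 3 members. It had 22019 counts in replicate 1 and 15324 in replicate 2. This corresponded to 2904 CPM (exact Clopper-Pearson 95% interval 2866 to 2943) and 1553 CPM (1529 to 1578), a mean of 2229 ± 955 CPM (SD, n = 2). Replicate 1 was the higher library by 1.87-fold, and the counting intervals did not overlap, so the spread between the libraries was much wider than counting error. By level Mir28a ranked 34 of 2202 genes in replicate 1 and 45 in replicate 2. It took 0.290% and 0.155% of all assigned counts. In bulk libraries such as these, fewer cells that contain a microRNA and less of it per cell cannot be told apart.

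Mir151 came next, with 13681 and 13051 counts. Its level was 1805 CPM in replicate 1 (interval 1774 to 1835) and 1323 CPM in replicate 2 (1300.3 to 1346), a mean of 1564 ± 341 CPM (SD, n = 2). The libraries again differed in the same direction, by 1.36-fold. Its rank was 47 in replicate 1 and 51 in replicate 2. Of the 3 members it had the smallest SD relative to its mean.

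Mir708 was the least abundant, with 5596 and 3972 counts. These gave 738 CPM in replicate 1 (interval 719 to 758) and 403 CPM in replicate 2 (390.2 to 415), a mean of 570.4 ± 237 CPM (SD, n = 2). Replicate 1 was 1.83-fold higher. The gene ranked 80 and 84. It was thus still well within the upper part of the detected genes, whose median level was 53.1 CPM.

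**Figure D1:**
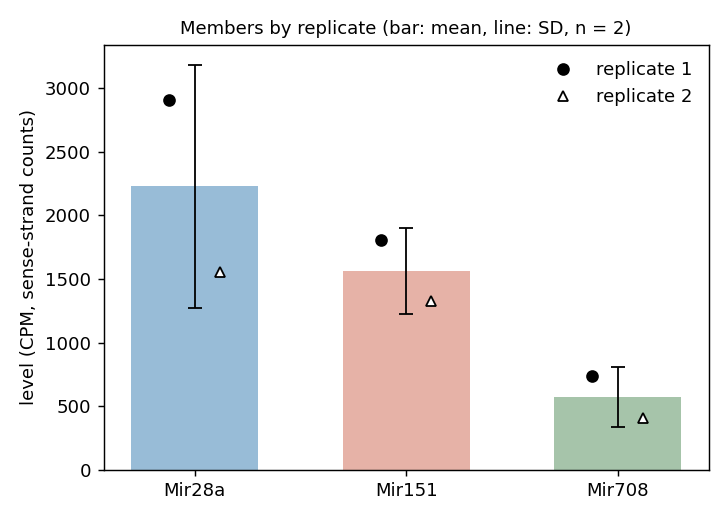
Level in CPM (vertical axis, from 0) of Mir28a, Mir151 and Mir708 in C2C12 myocytes; bars are means of 2 replicates, lines are SDs, filled circles replicate 1 and open triangles replicate 2. Replicate 1 is the higher library for each gene, and the Mir708 points, 403 and 738 CPM, lie below all points of the other 2 genes.

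The order Mir28a, Mir151, Mir708 was the same within each library. Across libraries the first pair could not be separated: Mir28a in replicate 2, at 1553 CPM, was below Mir151 in replicate 1, at 1805 CPM. Mir708 was apart from both, since its higher value of 738 CPM was below the lowest value of Mir151, 1323 CPM. With 2 values a gene, no permutation of the replicates can reach the 0.05 threshold, so the order is given as a description. Together the members took 5447 CPM in replicate 1 and 3279 CPM in replicate 2, or 0.545% and 0.328% of the assigned counts. The hairpins whose 5p strands share the AGGAGCU seed, Mir28a and Mir708, had 3642 and 1956 CPM in sum, with both arms counted.

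**Figure D2:**
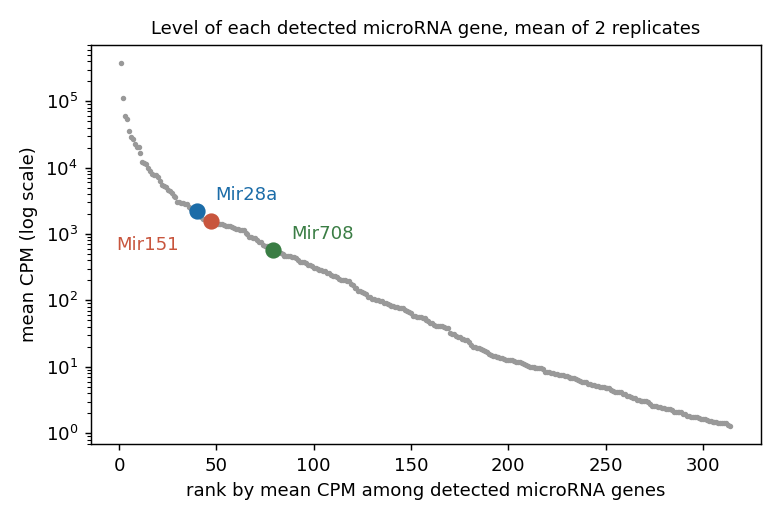
Mean CPM (vertical log axis) of the 314 detected microRNA genes against their rank (horizontal axis), with the 3 members in colour. Mir28a stands at rank 40, Mir151 at rank 47 and Mir708 at rank 79.

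The relatives were nearly without counts. Mir28b (chromosome 8, 73016512 to 73016591, plus strand, in no coding intron of its strand) had 9 counts in replicate 1 and 3 in replicate 2, or 1.19 and 0.304 CPM. Mir28c (chromosome 15, 53614205 to 53614279, minus strand, in an intron of Samd12) had 3 and 0 counts, where a count of 0 allows up to 0.304 CPM (3 counts of the library). Neither was detected. All but a few of the uniquely placed reads of the named miR-28 genes therefore lay at Mir28a.

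Sequence shared with other hairpins bears on these counts, because reads with several possible origins were counted for none of them. The longest run that miR-28a-5p shared with any other annotated microRNA hairpin was 20 bases in Mir28c, its bases 2 to 21. For miR-708-5p it was 22 of 23 bases, its bases 2 to 23, in Gm23134. This predicted microRNA gene (ENSMUSG00000077990.1, chromosome 2, 157562361 to 157562447, minus strand, in an intron of Blcap) was picked out by this search and not by the naming rule. It had 0 counts in replicate 1 and 7 in replicate 2. The Mir151 hairpin shared at most 17 bases with another hairpin, Mir28c, and 16 with Mir28a. The 3p strands of Mir28a and Mir708 shared no more than 11 and 10 bases with another hairpin. The counts of Mir28a and Mir708 are therefore uncertain: multi-mapped reads made up 22.0% of replicate 1 and 17.9% of replicate 2, and how many of them came from miR-28a-5p or miR-708-5p was not tested.

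The make-up of the members' counts differed between the libraries. Mir28a held 53.3% of the members' counts in replicate 1 (exact 95% interval 52.8 to 53.8) and 47.4% in replicate 2 (46.8 to 47.9). Mir151 held 33.1% (32.7 to 33.6) and 40.3% (39.8 to 40.9). Mir708 held 13.6% (13.2 to 13.9) and 12.3% (11.9 to 12.6). Mir151 thus had a larger share in replicate 2, by 7.22 percentage points, and the other members smaller ones. Shares depend on each other, so they do not tell which member's level moved. Relative to library totals, Mir151 differed least in level, by 1.36-fold, against 1.87-fold for Mir28a and 1.83-fold for Mir708. Fisher's exact tests of each member against the others, two-sided and Benjamini-Hochberg adjusted over the 3 tests, gave adjusted p = 3.86e-90 for Mir151, 1.51e-57 for Mir28a and 3.36e-07 for Mir708. These tests compare the 2 libraries and cover counting error only.

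**Figure D3:**
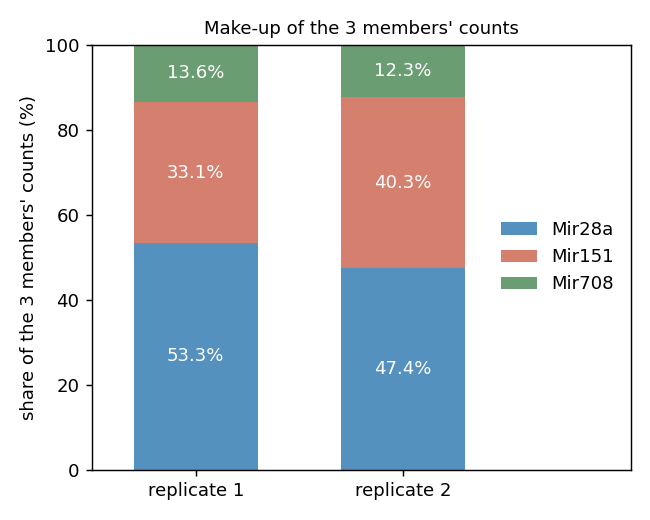
Share of each member in the summed counts of the 3 members (vertical axis, percent) in replicate 1 and replicate 2. The Mir151 segment is 33.1% in replicate 1 and 40.3% in replicate 2, and the Mir708 segment is 13.6% and 12.3%.

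Ratios within a library do not depend on how libraries are scaled. They restate the shares pair by pair, from the same counts. Mir28a had 3.93 counts for each Mir708 count in replicate 1 and 3.86 in replicate 2. The ratio of these ratios was 1.02 (95% interval 0.974 to 1.07), and Fisher's exact test did not separate the libraries (adjusted p = 0.402 over the 3 pairs). A change in this ratio of up to 1.07-fold is within that interval. Mir28a to Mir151 was 1.61 in replicate 1 and 1.17 in replicate 2, a ratio of ratios of 1.37 (1.33 to 1.41), with adjusted p = 1.20e-84 in Fisher's exact test. Mir151 to Mir708 was 2.44 and 3.29, a ratio of ratios of 0.744 (0.710 to 0.780), with adjusted p = 1.13e-34 in the same exact test. The pair with the common 5p seed was thus the pair whose counts kept nearly the same proportion in these 2 libraries. With 2 libraries, this describes the libraries and shows nothing about shared control.

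All 3 members were called different between the replicates, and all were higher in replicate 1. Over the 314 detected genes, a two-sided exact binomial test, its p-values adjusted by the Benjamini-Hochberg method, called 66.6% of genes in either direction and 38.2% as higher in replicate 1. Being called was therefore common among genes of any kind, and more so among genes with many counts. With a minimum of 100 counts in each library, which all members passed, 166 of 187 genes were called. The log2 ratio, replicate 2 over replicate 1, was −0.90 for Mir28a, with an adjusted p of 0 to the precision of the exact computation. It was −0.45 for Mir151, with adjusted p = 4.22e-141 in the exact test, and −0.87 for Mir708, with adjusted p = 1.95e-190. The median log2 ratio of all detected genes was −0.09, and 169 of the 314 (53.8%) were higher in replicate 1. Relative to that median the members stood at −0.81, −0.36 and −0.78.

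**Figure D4:**
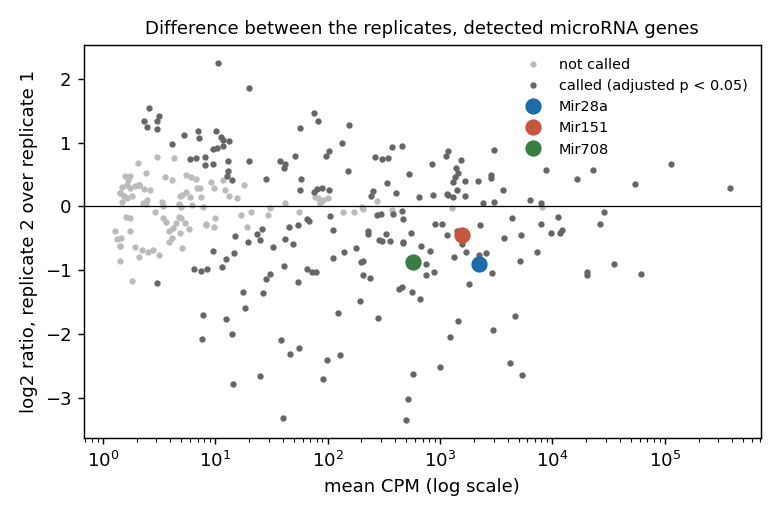
Log2 ratio of replicate 2 over replicate 1 (vertical axis) against mean CPM (horizontal log axis) for the 314 detected microRNA genes; dark points were called by the exact binomial test and pale points were not. The members lie below 0, at −0.90 (Mir28a), −0.45 (Mir151) and −0.87 (Mir708), inside the cloud of other genes.

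Set against the other genes, the difference of Mir151 was of ordinary size, and those of Mir28a and Mir708 were larger than most. The median absolute log2 ratio over detected genes was 0.51. A larger absolute ratio than that of Mir28a was found for 82 of the 314 genes (26.1%), than that of Mir708 for 86 (27.4%) and than that of Mir151 for 172 (54.8%). The square root of the common dispersion that edgeR estimated from these libraries, which describes the relative spread of a gene between replicates, was 0.423. Relative to their means, the SDs of Mir28a (955 on 2229 CPM) and Mir708 (237 on 570.4 CPM) were close to that value. That of Mir151 (341 on 1564 CPM) was below it. By absolute log2 ratio, Mir151 differed by less than the median gene, and Mir28a and Mir708 by more, without standing at the edge.

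The members were above most of the detected intronic microRNAs listed here. A host gene was not counted where an exon of any of its transcripts touched the hairpin. Hairpins in an intron of some transcripts and an exon of others could thus be left out. Of 741 microRNA genes in introns of coding genes on the same strand, 128 were detected, with a median of 47.6 CPM and a middle range (quartiles) of 7.11 to 508 CPM. Among the 125 detected intronic genes other than the members, 9 had a higher mean than Mir28a, 10 a higher mean than Mir151 and 27 a higher mean than Mir708. Among 12 widely expressed microRNAs often used as assay references, 11 were detected, with a median of 606 CPM. They ranged from Mir103-2 with 23.3 ± 4.89 CPM to Mir191 with 3039 ± 99.8 CPM (SD, n = 2 for each), the former uncertain because it shares sequence with Mir103-1. Mir16-1 and Mir16-2, with means of 433 and 125 CPM, are also a gene pair and uncertain in the same way. The median of the list and its comparison with the members are therefore uncertain too. Of the detected reference microRNAs, 2 had a higher mean than Mir28a, 3 than Mir151 and 6 than Mir708, and the levels of the members fell within the range of these reference microRNAs.

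The genes whose levels were most like those of each member were found by distance in log2(CPM + 1) over the 2 libraries. For Mir28a they were Mirlet7d (distance 0.10, with 2825 CPM in replicate 1 and 1656 in replicate 2), Mir27a (0.35) and Mir93 (0.44). For Mir151 they were Mir30b (0.10, with 1886 and 1249 CPM), Mir484 (0.19) and Mir106b (0.23), which lies in an intron of the replication gene Mcm7. For Mir708 they were Mir361 (0.13, with 784 and 428 CPM), in an intron of Chm, then Mir183 (0.32) and Mir196a-2 (0.36). Mir27a shares 20 bases with Mir27b, and Mir196a-2 shares 22 with Mir196a-1, so their counts are uncertain. Mir361, Mir484 and Mir93 belong to the reference microRNAs. Over 2 libraries this likeness is a description of level alone.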

How the data were processed

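Per the labels, total RNA was sequenced by a microRNA protocol with adapter trimming. The authors deposited whole-number read counts per microRNA gene and library, not normalized, for build mm10 and GENCODE M21 per the deposited notes. The aligner and counter were not given in the sources used here. Each table has either-strand, sense and opposite-strand count columns and 4 entries for reads in no gene, which held 50.6% and 46.5% of reads and entered neither library sizes nor tests. The layout is that of STAR gene counts, so counts were read as uniquely mapped reads.

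CPM were computed from sense counts. Genes with at least 10 counts in each library were compared by exact binomial tests given the library totals (scipy 1.17.1, adjusted p threshold 0.05). The code was checked on simulated counts drawn with counting error only, so the check does not cover the wider spread between these libraries. With 1 group, edgeR's quasi-likelihood test could not be run; edgeR 4.0.16 gave the dispersion and TMM factors, DESeq2 1.42.0 size factors. Intervals are 95% and, like the tests, cover counting error only. PCR copies carry no molecular identifiers and were counted as separate reads, so intervals may be too narrow even for counting error. Intervals of ratios of ratios use the normal approximation on the log scale. The libraries differed by more than sampling noise (chi-square 780465, 313 degrees of freedom). Mature sequences came from RefSeq (GRCm38.p6), hairpins, coordinates and hosts from GENCODE M21. Genes named are the members, their relatives, the 3 genes nearest to each member by level and the ends of the reference list. Some marker genes and genes that share sequence with others are also named. Members, lists and tests were chosen with earlier results of these data known.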

Additional observations from a re-analysis of the deposited data

Results flagged for a closer look

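Reads on the strand opposite a hairpin entered no level. Mir708 had 9 such counts in replicate 1 and 7 in replicate 2, above the 3 counts that a count of 0 allows and equal to 0.161% and 0.176% of its sense counts. No microRNA gene is annotated on that strand there. Mir28a and Mir151 had 0 opposite-strand counts in both libraries. Opposite-strand counts were found in at least 1 library for 96 of the 2202 genes.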

How the results depend on the processing

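The members' levels depended on the denominator. Without Mir206, the gene with the most counts, in the denominator the means were 3535 CPM for Mir28a, 2503 for Mir151 and 905 for Mir708. Per 1000000 reads of any kind they were 1133, 799 and 289.9. TMM factors, DESeq2 size factors, either-strand counts and leaving out each replicate moved no member's mean by more than its SD, which for 2 replicates holds by construction when 1 is left out. The log2 ratio, replicate 2 over replicate 1, kept its sign and its call in all 7 alternatives for each member, from −0.90 to −0.73 for Mir28a, −0.45 to −0.27 for Mir151 and −0.87 to −0.70 for Mir708. A minimum of 1 or of 100 counts left each ratio unchanged by construction, because it changes only which genes are tested. For Mir28a and Mir151, which had 0 opposite-strand counts, either-strand counts changed only the denominator. Scaling moved the median ratio of all detected genes from −0.09 with library totals to 0.01 with TMM factors and 0.09 without Mir206, and it moved the members by the same amount. The number of genes called ranged from 166 of 187 with a minimum of 100 counts to 227 of 555 with a minimum of 1. The members' shares moved by less than their SD with either-strand counts. No paired analysis was possible because the series has 1 group. Counting error was small for the members, and 2 replicates limit every statement on spread.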
